A study of Homo sapiens with 12 samples.

Results

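The ribosome biogenesis genes are the genes that the deposited table places on the KEGG pathway of ribosome biogenesis in eukaryotes. They were chosen as every row with a gene symbol and that pathway annotation, which gave 227 of the 60671 rows with a symbol. By their GENCODE gene type, 81 were protein-coding, 17 were copies of the 5S ribosomal RNA gene, and most others were pseudogenes, antisense transcripts or other noncoding loci. RNA was sequenced from HCT116, a human colorectal carcinoma cell line labelled as wild type, in 4 groups of 3 libraries. Cystine-deprived cells had been washed and given medium with 0 mM cystine for 24 h or for 48 h, and control cells had been kept in full medium for 24 h or for 48 h, all with serum and antibiotics. Cystine is the oxidised form of the amino acid cysteine and its main form in culture medium. The labels describe the wash and change of medium for the deprived cells only, so these cannot be told apart from the loss of cystine. No label states that the 3 libraries of a group are separate cultures, and the p-values therefore cover the spread among these libraries only, which may be technical.

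Ribosomes are assembled in the nucleolus from ribosomal RNA and ribosomal proteins with the help of many factors that are not part of the finished particle. Small nucleolar ribonucleoproteins modify the precursor RNA, the small subunit processome folds and cleaves it, nucleases trim it, and export factors carry the subunits to the cytoplasm, where the last factors are removed. Cells that divide fast, as cultured carcinoma cells do, are known to make ribosomes at a high rate.

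Of the 227 genes, 94 had enough reads to be tested. The untested 133 included 76 with no count in any library, and the highest estimated count of any untested gene in any library was 18. Grouped by role, 80 genes were known assembly factors or close relatives, of which 73 were tested, the pseudogene RRP7BP among them. The 7 untested ones were NXF2, NXF2B, NXF3, NXF5, REXO1L1P, CSNK2A3 and RMRP. The other 147 comprised the 17 copies of the 5S gene, of which 1 was tested, and 130 pseudogenes and other loci, of which 20 were tested.

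The libraries held between 19146108 and 24179533 estimated counts, and the 227 genes together took 0.70% to 0.72% of the counts in deprived cells and 0.53% to 0.59% in control cells. Markers of simple epithelium and colon matched the label in part. EPCAM, KRT8, KRT18, KRT19, CDH1 and CDX2 were present in every library, while CDX1 had no count and VIL1 stayed at or below 2.00 CPM (library counts scaled to a common depth), the scale of every level given here. The 8 epithelial and colon markers summed to 5082 to 5212 CPM in deprived cells and 3683 to 4089 CPM in control cells at 24 h, and to 4734 to 5275 CPM in deprived cells and 3985 to 4398 CPM in control cells at 48 h. The leukocyte list of 5 genes summed to 11.0 to 11.8 CPM in deprived cells and 4.54 to 5.03 CPM in control cells at 24 h, and to 22.4 to 27.0 CPM in deprived cells and 10.2 to 10.9 CPM in control cells at 48 h, nearly all of it CD68, with PTPRC and CD3E at 0. The fibroblast list of 6 was lower in deprived cells, at 16.3 to 20.7 CPM against 32.3 to 34.2 CPM in control cells at 24 h and 20.4 to 22.6 CPM in deprived cells and 44.7 to 49.4 CPM in control cells at 48 h. The endothelial list of 4 gave 32.2 to 32.7 CPM in deprived cells against 44.5 to 52.0 CPM in control cells at 24 h and 19.9 to 22.1 CPM in deprived cells and 48.6 to 57.7 CPM in control cells at 48 h. COL1A1 and EGFL7 made up most of these sums, and the part of these shifts in the results was not tested.

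Ribosome biogenesis genes rose more often than they fell in deprived cells at both times. At 24 h, 52 of the 94 tested genes rose and 6 fell in deprived against control cells (edgeR quasi-likelihood test, Benjamini-Hochberg adjusted p under 0.05 over all 16994 genes tested). Among all genes tested, 28.8% rose and 26.9% fell, while among these 94 the shares were 55.3% and 6.38%. At 48 h, 56 rose and 12 fell, or 59.6% and 12.8%, against 33.5% and 34.9% of all genes. The median log2 fold change of the 94 genes was 0.31 at 24 h and 0.41 at 48 h, against -0.01 and -0.02 for all genes. These changes were mostly modest. A rise of at least 2-fold was called for 1 of the 73 tested factors at 24 h, SBDS, and for 14 at 48 h, where 4.84% and 8.59% of all genes passed that limit. A fall of at least 2-fold was called for RPP25 and REXO5 at 48 h, against 15.3% of all genes. Added up, the 227 genes reached 7229 ± 75.6 CPM in deprived cells and 5658 ± 48.5 CPM in control cells at 24 h, and 7294 ± 170.1 CPM in deprived cells and 5308 ± 70.2 CPM in control cells at 48 h (SD, n = 3 each). In bulk samples such as these, fewer cells of a type and less RNA per cell cannot be told apart.

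By role, rises were the rule among the processome and large subunit factors, and rises and falls were mixed among the RNase P and MRP, export and nuclease genes. Of the 73 tested factors, 44 rose at both times, against 22.6% of all genes. In 38 of the 44 the log2 fold change was larger at 48 h, for which the share among all genes was not computed. Another 7 passed as higher and 4 as lower at 48 h and not at 24 h. At both times 5 fell, against 21.3% of all genes, and 10 passed at neither time. The shares of all genes called at 1 time alone or at neither time were not computed. A call at 1 time and not at the other does not show that the effects differ, which was tested separately. UTP18 and CSNK2A2 passed as higher at 24 h alone, and REXO5 rose at 24 h and fell at 48 h, a pattern of 2.08% of all genes. The groups of 3 libraries did not overlap for 57 of the 73 factors at 24 h, 50 with the deprived libraries above and 7 with them below, against 32.1% and 30.7% of all genes. At 48 h, 53 had all deprived libraries above and 11 below, against 34.2% and 35.8%.

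**Figure D1:**
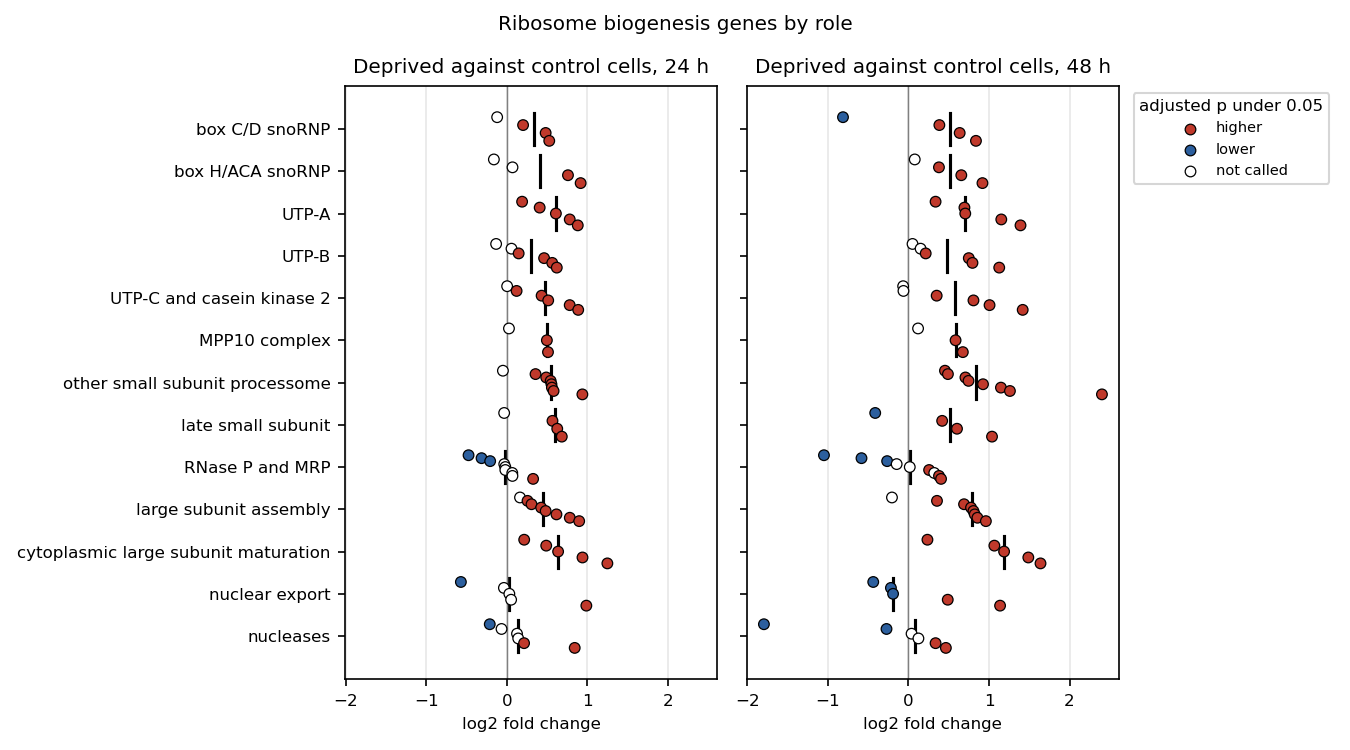
Log2 fold change of each tested assembly factor in deprived against control cells, by role, at 24 h (left) and 48 h (right). Each point is 1 gene, filled where the edgeR adjusted p is under 0.05 (red higher, blue lower), and the black bars are the medians of the roles. The points of cytoplasmic large subunit maturation lie all to the right of 0, with medians of 0.64 and 1.19, while those of RNase P and MRP, nuclear export and the nucleases lie on both sides.

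Some promoters of the assembly factors carry CACGTG, the E-box hexamer known as a binding site of MYC and related factors, a palindrome that reads alike on both strands. Promoter sequences were taken from RefSeq (GRCh38.p14) as 250 bases before to 50 bases after each gene's start, and 67 of the 73 tested factors had an entry. The hexamer was found in 17 of the 67, or 25.4%, against 1407 of 15842 protein-coding promoters, or 8.88%. The 67 belong to genes with enough reads to be tested, while the 15842 were taken whether or not their genes were tested. The hexamer was in 9 of 40 promoters of the factors that rose at both times, or 22.5%, and in 8 of 27 of the other tested factors, or 29.6%. The sequence TGATGCAA, an ATF4 composite element, was searched on both strands and was in 0 of the 67 and in 0.669% of protein-coding promoters. At so low a rate, 67 promoters are too few for the 0 to show a lack of it. No other form of the element was searched. A match is a description of the letters and not a measured binding site. The sequences of NOL6 (chr9:33473875-33474174, minus strand), WDR43 (chr2:28894417-28894716, plus strand) and FBL (chr19:39846330-39846629, minus strand) are printed because the first 2 rose and FBL fell at 48 h, while each holds the hexamer, in capitals here, just after the start site. It begins at position 14 in NOL6, 4 in WDR43 and 7 in FBL, counted from 1 at the start site.
NOL6: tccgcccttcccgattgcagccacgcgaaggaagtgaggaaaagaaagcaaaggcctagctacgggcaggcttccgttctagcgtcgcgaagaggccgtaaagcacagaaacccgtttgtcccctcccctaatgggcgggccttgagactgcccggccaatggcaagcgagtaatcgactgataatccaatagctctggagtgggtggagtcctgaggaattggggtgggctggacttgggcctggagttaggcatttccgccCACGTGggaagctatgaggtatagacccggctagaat
WDR43: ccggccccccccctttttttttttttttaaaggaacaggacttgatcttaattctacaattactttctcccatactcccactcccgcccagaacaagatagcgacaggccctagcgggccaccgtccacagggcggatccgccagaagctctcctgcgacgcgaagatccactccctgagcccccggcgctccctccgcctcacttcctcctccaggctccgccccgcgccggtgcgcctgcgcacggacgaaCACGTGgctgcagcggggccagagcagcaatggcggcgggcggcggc
FBL: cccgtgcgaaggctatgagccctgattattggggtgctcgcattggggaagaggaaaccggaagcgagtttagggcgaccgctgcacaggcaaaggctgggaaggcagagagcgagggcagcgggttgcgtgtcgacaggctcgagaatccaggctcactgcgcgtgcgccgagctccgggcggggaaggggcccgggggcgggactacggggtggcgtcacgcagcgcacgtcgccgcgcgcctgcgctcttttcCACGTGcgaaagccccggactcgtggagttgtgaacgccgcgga
NOL6 and WDR43, members of the small subunit processome, were among the larger rises, and FBL was the largest fall among the core proteins of the snoRNA particles.

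The core proteins of the box C/D particles, which carry out 2'-O-methylation of ribosomal RNA, did not move together. Their methyltransferase fibrillarin, FBL (ENSG00000105202, chr19:39834458-39846414), had 227, 218 and 225 CPM in deprived cells and 234, 242 and 251 CPM in control cells at 24 h. At 48 h it had 116, 137 and 139 CPM in deprived cells, against 213, 233 and 244 CPM in control cells. The 24 h groups lay next to each other without overlap and the difference missed the threshold (log2 fold change -0.12, SE 0.06, edgeR adjusted p = 0.126), although it passed as a fall under 4 other settings, namely upper-quartile scaling, library totals, a filter at a mean of 5 CPM and a fit of the 24 h groups alone (log2 fold change -0.19 to -0.13). At 48 h all 3 deprived libraries lay far below the controls, a 1.76-fold fall (log2 fold change -0.81, SE 0.07, edgeR adjusted p = 1.68e-09). The scaffold proteins of the same particle went the other way. NOP56 had 288, 291 and 292 CPM in deprived cells against 199, 199 and 206 CPM in control cells at 24 h, and 288, 307 and 320 CPM in deprived cells and 168, 170 and 174 CPM in control cells at 48 h. The groups were far apart at both times, with rises of 1.44-fold and 1.79-fold (edgeR adjusted p = 2.18e-08 and 1.08e-11). NOP58 rose by a log2 fold change of 0.48 at 24 h and 0.64 at 48 h. SNU13, which binds the kink-turn of the snoRNA, rose by 0.20 and 0.38, and its 24 h call was lost with upper-quartile scaling or library totals (0.13 each) and without deprived 24 h replicate 3 (0.18) or control 24 h replicate 1 (0.16).

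The box H/ACA particles convert uridine to pseudouridine, and dyskerin, encoded by DKC1, is their enzyme. DKC1 (ENSG00000130826, chrX:154762742-154777689) had 212, 211 and 207 CPM in deprived cells against 113, 108 and 112 CPM in control cells at 24 h, and 168, 187 and 190 CPM in deprived cells and 110, 115 and 121 CPM in control cells at 48 h. All deprived libraries lay above all controls, by 1.89-fold at 24 h and 1.58-fold at 48 h (edgeR adjusted p = 8.2e-11 and 3.16e-09). GAR1, another core protein, rose by a log2 fold change of 0.76 and 0.92. The small subunit NOP10 was not called at 24 h (0.07, edgeR adjusted p = 0.393) and rose at 48 h (0.38, edgeR adjusted p = 5.19e-05). NHP2, the fourth core protein, had 81.6, 84.5 and 82.6 CPM in deprived cells and 84.7, 92.6 and 101 CPM in control cells at 24 h, and 72.5, 85.0 and 84.4 CPM in deprived cells and 71.3, 77.9 and 79.98 CPM in control cells at 48 h. It passed at neither time (log2 fold change -0.16 and 0.08), but its 24 h value passed as lower in 6 alternative fits and without control 24 h replicate 1 (-0.22), deprived 48 h replicate 1 (-0.16) or control 48 h replicate 1 (-0.16). Some 27.4% of the exonic bases of NHP2 lie within exons of RMND5B on the opposite strand.

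**Figure D2:**
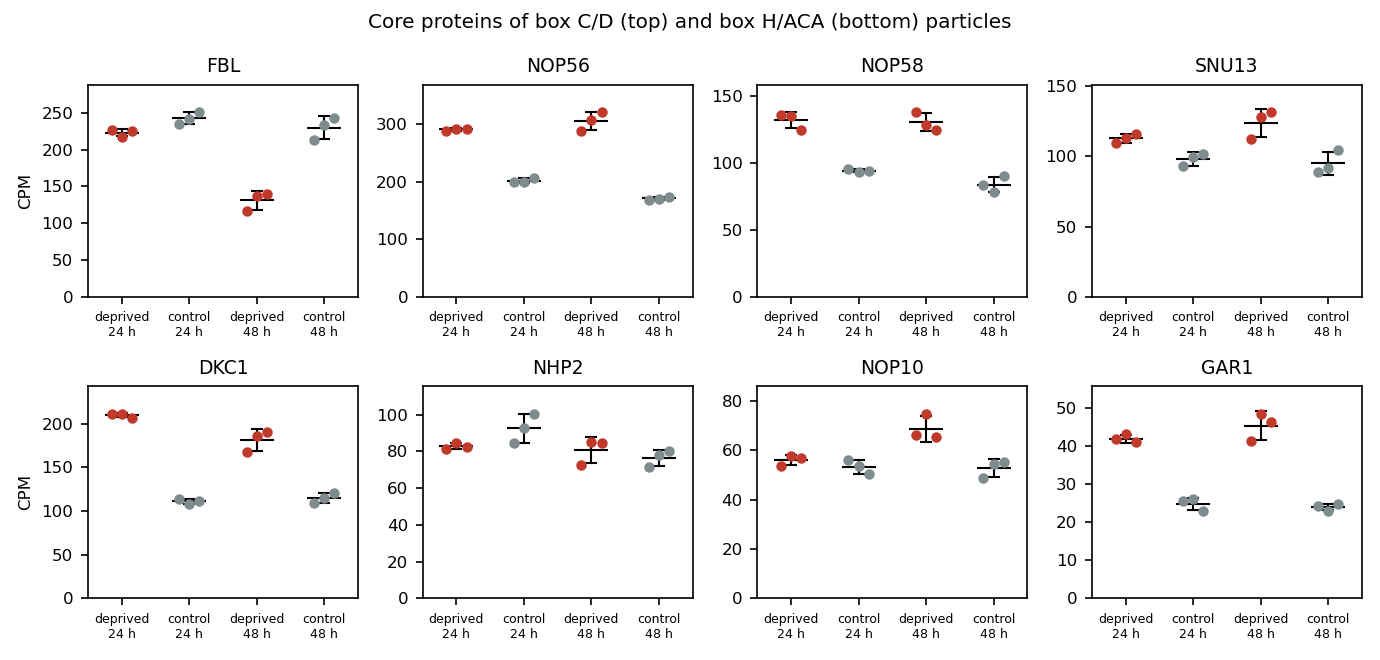
CPM of the core proteins of box C/D particles (top row) and box H/ACA particles (bottom row) in each library, with deprived cells in red and control cells in grey. Points are libraries, bars are the mean and SD of 3 libraries, and each axis starts at 0. FBL stands apart from the other 3 box C/D genes, with 116 to 139 CPM in deprived cells against 213 to 244 CPM in control cells at 48 h.

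All 5 tested genes of the UTP-A complex rose at both times, against 22.6% of all genes. This complex joins the precursor RNA first and is tied to its transcription. UTP15 (ENSG00000164338, chr5:73565443-73583377) rose the most at 48 h, with 41.7, 39.6 and 42.4 CPM in deprived cells against 17.4, 14.7 and 15.005 CPM in control cells. At 24 h it had 34.4, 39.2 and 33.9 CPM in deprived cells and 21.4, 21.3 and 19.9 CPM in control cells. The deprived libraries were clear of the controls at both times, by 1.72-fold at 24 h and 2.62-fold at 48 h (edgeR adjusted p = 8.82e-08 and 1.06e-11). WDR43, whose promoter is printed above, had 221, 217 and 205 CPM in deprived cells against 112, 121 and 116 CPM in control cells at 24 h, and 243, 231 and 236 CPM in deprived cells and 107, 107 and 105 CPM in control cells at 48 h. Its groups were likewise clear of each other, by 1.84-fold and 2.22-fold (edgeR adjusted p = 3.01e-11 and 1.69e-13). HEATR1, the large repeat protein of the complex, rose by a log2 fold change of 0.41 and 0.70. WDR75 rose least, by 0.19 and 0.34, and its 24 h call was lost with upper-quartile scaling or library totals.

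The UTP-B complex, which bridges the 5' end of the precursor to the growing particle, split into a rising and a near-flat set. WDR36, WDR3 and UTP6 rose at both times, with log2 fold changes at 48 h of 1.13, 0.75 and 0.80. WDR36 had 102, 106 and 95.6 CPM in deprived cells against 64.5, 67.9 and 64.9 CPM in control cells at 24 h, and 134, 120 and 125 CPM in deprived cells and 61.7, 53.2 and 58.3 CPM in control cells at 48 h, with no overlap. PWP2 passed as higher at 48 h alone (0.21, edgeR adjusted p = 0.0243), a call lost with upper-quartile scaling (0.16) and without any 1 of deprived 48 h replicates 2 (0.21) and 3 (0.18) and control 48 h replicates 1 (0.18) and 3 (0.20). UTP18 passed as higher at 24 h alone (0.15, edgeR adjusted p = 0.029), a call lost with upper-quartile scaling (0.08), library totals (0.07) or no filter on low counts (0.15), and without any 1 of 4 libraries, deprived 24 h replicates 1 (0.13) and 3 (0.15) and control 24 h replicates 2 (0.16) and 3 (0.12). TBL3 passed at neither time, at -0.13 and 0.15, but it passed as lower at 24 h with upper-quartile scaling (-0.20), library totals (-0.21) or without control 24 h replicate 2 (-0.21). It passed as higher at 48 h with the replicate block (0.15), with the 48 h groups alone (0.17) and without control 24 h replicate 2 or 3 (0.15 each). Reads of PWP2 may be shared with its near-identical copy FP565260.1. Their sum was 70.8 ± 4.20 CPM in deprived cells and 67.3 ± 4.84 CPM in control cells at 24 h, and 77.3 ± 3.72 CPM in deprived cells and 65.9 ± 1.20 CPM in control cells at 48 h (SD, n = 3 each).

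The UTP-C group holds casein kinase 2 and its partners in the processome. Of its 6 tested genes, 5 rose at 24 h and 4 at 48 h, against 28.8% and 33.5% of all genes. NOL6 (ENSG00000165271, chr9:33461441-33473930), the human Utp22, had 52.8, 58.7 and 57.1 CPM in deprived cells against 30.2, 30.5 and 30.6 CPM in control cells at 24 h. At 48 h it had 70.1, 71.8 and 85.2 CPM in deprived cells and 27.6, 30.7 and 26.6 CPM in control cells. No deprived library came near a control, and the rises were 1.85-fold and 2.67-fold (edgeR adjusted p = 1.3e-08 and 4.25e-12). Its partner RRP7A rose by a log2 fold change of 0.51 and 1.01, while the pseudogene RRP7BP gave 0.00 and -0.06, and the sum of this pair was 87.5 ± 5.32 CPM in deprived cells against 52.9 ± 1.10 CPM in control cells at 48 h (SD, n = 3 each). The 2 catalytic subunits of casein kinase 2, a kinase with many substrates outside the nucleolus, differed. CSNK2A1 had 476, 476 and 464 CPM in deprived cells against 276, 276 and 271 CPM in control cells at 24 h, and 492, 503 and 501 CPM in deprived cells and 274, 303 and 278 CPM in control cells at 48 h, rises of 1.72-fold and 1.75-fold with no overlap. CSNK2A2 had log2 fold changes of 0.12 and -0.07, and its 24 h call was lost in 12 of the 20 other fits, among them those without deprived 24 h replicate 1 or 3, any 1 of the control 24 h libraries, deprived 48 h replicate 2 or control 48 h replicate 1 (0.09 to 0.13), and those with upper-quartile scaling or library totals (0.05 each). At 48 h it passed as lower with upper-quartile scaling (-0.12). The regulatory subunit CSNK2B rose by 0.43 and 0.35. Some 37.1% of its exonic bases lie within exons of other genes, with 23.0% in exons of AL662899.2 on the same strand.

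In the MPP10 complex, a part of the processome, MPHOSPH10 and IMP4 rose at both times. Their log2 fold changes were 0.50 and 0.51 at 24 h and 0.59 and 0.68 at 48 h. IMP3 passed at neither time, at 0.03 and 0.12, though at 48 h it passed as higher without deprived 48 h replicate 1 (0.20), and 59.3% of its exonic bases lie within exons of other genes. The remaining processome factors numbered 8. Of these, 7 rose at 24 h and all 8 at 48 h, against 28.8% and 33.5% of all genes. EMG1, a methyltransferase of the small subunit RNA, had 95.4, 92.0 and 93.7 CPM in deprived cells against 49.3, 50.3 and 47.0 CPM in control cells at 24 h, and 101, 118 and 109 CPM in deprived cells and 44.0, 46.0 and 46.9 CPM in control cells at 48 h. The groups lay far apart (log2 fold change 0.94 and 1.26, edgeR adjusted p = 1.67e-10 and 6.31e-13), and 53.1% of its exonic bases overlap other genes, mostly LPCAT3 on the opposite strand, so reads cannot be assigned with certainty where strand was not used. NAT10, the cytidine acetyltransferase of ribosomal RNA, rose by 0.56 and 0.71. TCOF1, the treacle protein that links RNA polymerase I to processing and is mutated in Treacher Collins syndrome, rose by 0.58 and 0.45.

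UTP14C gave the largest log2 fold change of the tested factors at 48 h, beside low values in its controls. This retrotransposed relative of UTP14A had 16.7, 8.25 and 6.89 CPM in deprived cells against 7.90, 12.4 and 12.5 CPM in control cells at 24 h, with wide overlap. At 48 h it had 11.3, 8.49 and 6.28 CPM in deprived cells and 1.53, 1.87 and 1.51 CPM in control cells. The 48 h difference was 5.29-fold (log2 fold change 2.40, SE 0.33, edgeR adjusted p = 2.56e-06), and it stood beside a 6.62-fold fall of control cells at 48 h against 24 h, while deprived cells averaged 8.68 ± 2.50 CPM at 48 h and 10.6 ± 5.30 CPM at 24 h (SD, n = 3 each). UTP14C shares 74.2% of its exonic bases with ALG11 on the same strand, so its counts are uncertain. UTP14A, whose yeast counterpart activates a helicase of the processome, had 63.5, 67.6 and 67.8 CPM in deprived cells against 28.8, 31.3 and 29.6 CPM in control cells at 48 h, a 2.22-fold rise (edgeR adjusted p = 1.63e-12).

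In the late, cytoplasmic steps of the small subunit, the kinases RIOK1 and RIOK2 rose and the endonuclease NOB1 did not. RIOK2 had 36.5, 31.9 and 32.4 CPM in deprived cells against 22.0, 24.3 and 21.6 CPM in control cells at 24 h, and 43.4, 32.9 and 33.7 CPM in deprived cells and 19.2, 17.6 and 16.8 CPM in control cells at 48 h, a rise of 1.48-fold and 2.05-fold. RIOK1 rose by a log2 fold change of 0.68 and 0.60. NOB1, which makes the final cut of the 18S RNA, had 133, 139 and 140 CPM in deprived cells against 137, 144 and 140 CPM in control cells at 24 h, and 117, 132 and 133 CPM in deprived cells and 160, 180 and 169 CPM in control cells at 48 h. The groups overlapped at 24 h and were apart at 48 h, when NOB1 was 1.33-fold lower in deprived cells (edgeR adjusted p = 3.13e-06). AK6 rose by 0.63 and 0.42, with 24.5% of its exonic bases in exons of other genes, chiefly TAF9.

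Of the 8 tested large subunit assembly genes, 7 rose at both times, against 22.6% of all genes. None fell at either time, against 26.9% of all genes at 24 h and 34.9% at 48 h. MDN1, the giant AAA ATPase that strips factors from the nuclear precursor, had 205, 207 and 211 CPM in deprived cells against 151, 147 and 148 CPM in control cells at 24 h, and 207, 208 and 221 CPM in deprived cells and 132, 115 and 105 CPM in control cells at 48 h. All deprived libraries lay above the controls, by 1.40-fold and 1.81-fold (edgeR adjusted p = 2.67e-06 and 5.09e-10). Of the nucleolar GTPases, GNL2 rose by a log2 fold change of 0.78 and 0.82, GTPBP4 by 0.62 and 0.78, GNL3, known as nucleostemin, by 0.31 and 0.35, and GNL3L by 0.26 and 0.96. The ATPase gene NVL rose by 0.90 and 0.81 and the RNA-binding protein gene RBM28 by 0.43 and 0.69. SPATA5, another AAA ATPase, passed at neither time, at 0.16 and -0.20, though at 48 h it passed as lower with upper-quartile scaling (-0.26), library totals (-0.23) or the filter at 5 CPM (-0.24), and without deprived 48 h replicate 3 (-0.25) or control 48 h replicate 2 (-0.26).

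The last steps of the large subunit, carried out in the cytoplasm, had the highest median log2 fold change of any role among the factors, 0.64 at 24 h and 1.19 at 48 h, although single genes of other roles, such as UTP14C at 48 h, gave larger values. EIF6 keeps the new large subunit from joining the small one, and SBDS with the GTPase EFL1 releases it. SBDS (ENSG00000126524, chr7:66987677-66995601), the gene of Shwachman-Diamond syndrome, had 86.0, 77.8 and 78.8 CPM in deprived cells against 36.7, 33.9 and 31.3 CPM in control cells at 24 h. At 48 h it had 99.2, 110 and 113 CPM in deprived cells and 32.0, 36.2 and 35.0 CPM in control cells. The deprived libraries were all far above the controls, by 2.38-fold and 3.12-fold (log2 fold change 1.25 and 1.64, SE 0.07 each, edgeR adjusted p = 4.19e-11 and 1.77e-13). EIF6 (ENSG00000242372, chr20:35278911-35284985) had 188, 187 and 190 CPM in deprived cells against 91.6, 102 and 101 CPM in control cells at 24 h, and 237, 265 and 271 CPM in deprived cells and 84.0, 98.2 and 93.3 CPM in control cells at 48 h. It too was clear of its controls, by 1.92-fold and 2.81-fold (edgeR adjusted p = 4.47e-10 and 1.75e-13). EFL1 had 53.0, 54.6 and 52.8 CPM in deprived cells against 22.0, 25.0 and 23.4 CPM in control cells at 48 h, a 2.28-fold rise after one of 1.56-fold at 24 h.

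LSG1, the GTPase that releases the export adapter NMD3 from the large subunit, had 96.6, 101 and 96.7 CPM in deprived cells against 48.1, 44.2 and 48.0 CPM in control cells at 48 h, a rise of 2.10-fold, with 1.41-fold at 24 h. NMD3 itself changed least of the group, by a log2 fold change of 0.22 and 0.24 (edgeR adjusted p = 0.00949 and 0.00397). Its 24 h call was lost with upper-quartile scaling, with library totals or without control 24 h replicate 1 (0.16). The pseudogene SBDSP1, a near-identical copy of SBDS, had 47.3, 44.5 and 43.9 CPM in deprived cells against 15.2, 14.5 and 14.1 CPM in control cells at 24 h, and 43.0, 45.1 and 47.3 CPM in deprived cells and 11.4, 11.2 and 11.1 CPM in control cells at 48 h. It rose by 3.10-fold and 4.01-fold, and reads of the pair can be split either way. Their sum was 126.2 ± 6.26 CPM in deprived cells and 48.6 ± 3.29 CPM in control cells at 24 h, and 152.3 ± 9.14 CPM in deprived cells and 45.6 ± 2.07 CPM in control cells at 48 h (SD, n = 3 each). The 5 factors without the pseudogene summed to 494 ± 9.43 CPM in deprived cells and 307 ± 11.4 CPM in control cells at 24 h, and to 622 ± 18.6 CPM in deprived cells and 286 ± 11.6 CPM in control cells at 48 h.

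**Figure D3:**
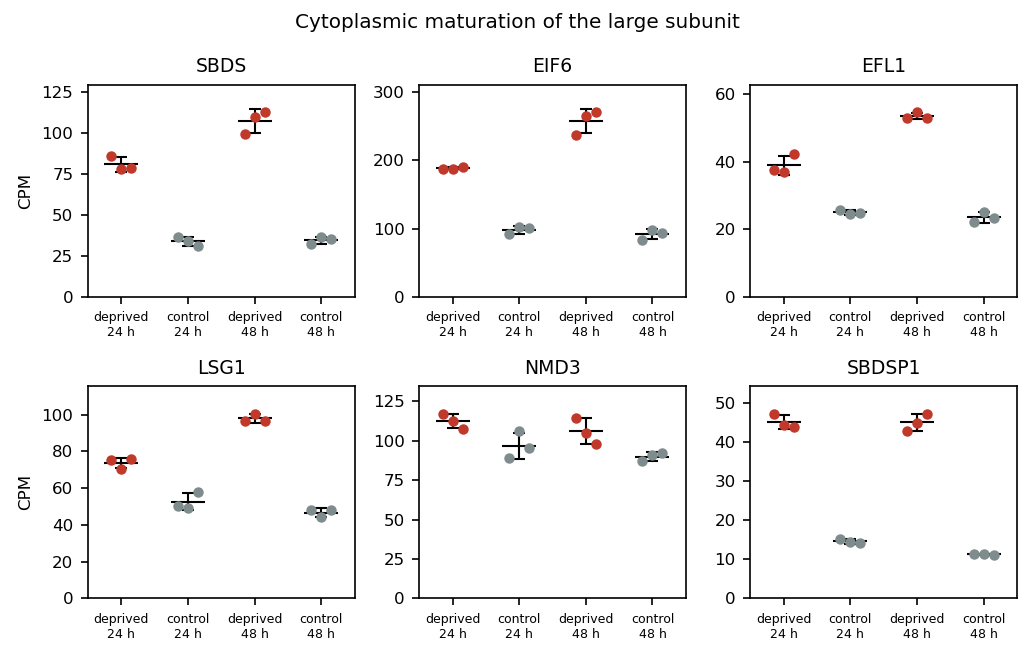
CPM of the genes of cytoplasmic large subunit maturation and of the pseudogene SBDSP1 in each library, with deprived cells in red and control cells in grey. Points are libraries, bars are the mean and SD of 3 libraries, and each axis starts at 0. In all panels the deprived libraries lie above the controls, closest for NMD3 and widest for SBDSP1, with 43.0 to 47.3 CPM in deprived cells against 11.1 to 11.4 CPM in control cells at 48 h.

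RNase P and RNase MRP, which cut transfer RNA and ribosomal RNA precursors and share most of their protein subunits, did not rise as a group. Of 9 tested subunit genes, 1 rose and 3 fell at 24 h, or 11.1% and 33.3% against 28.8% and 26.9% of all genes. At 48 h 3 rose and 3 fell, 33.3% each, close to the 33.5% and 34.9% of all genes. The 3 falls at 24 h became 1 without control 24 h replicate 2. RPP25 had 5.51, 5.70 and 5.48 CPM in deprived cells against 6.81, 8.52 and 7.90 CPM in control cells at 24 h, and 3.92, 4.31 and 3.60 CPM in deprived cells and 6.39, 9.96 and 8.17 CPM in control cells at 48 h. The groups did not overlap, and RPP25 fell by 1.39-fold and 2.07-fold (edgeR adjusted p = 0.014 and 8.99e-06). RPP30 had 17.7, 16.7 and 17.7 CPM in deprived cells against 25.1, 24.5 and 28.6 CPM in control cells at 48 h, a 1.498-fold fall, with 1.24-fold at 24 h. POP1, the largest subunit, fell by a log2 fold change of 0.21 at 24 h and 0.26 at 48 h. Without control 24 h replicate 2, the 24 h calls of RPP25 (-0.40) and POP1 (-0.14) were lost. RPP38, with 26.9% of its exonic bases in exons of other genes, rose by 0.33 and 0.38. POP4 and POP5 passed as higher at 48 h alone, at 0.41 and 0.26. The RNA component of RNase MRP, RMRP, had at most 18 estimated counts in a library and was not tested.

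The nuclear export genes were as mixed. XPO1, the exportin of both subunits, had 331, 319 and 311 CPM in deprived cells against 313, 314 and 298 CPM in control cells at 24 h, and 248.9, 218 and 208 CPM in deprived cells and 273, 253 and 259 CPM in control cells at 48 h. It overlapped at 24 h and was 1.16-fold lower in deprived cells at 48 h (edgeR adjusted p = 0.00321). RAN, the GTPase that drives the transport, gave a log2 fold change of -0.04 at 24 h and -0.19 at 48 h (edgeR adjusted p = 0.561 and 0.00176), and passed as lower at 24 h with library totals (-0.11). The 2 small cofactors of the export receptor NXF1 moved apart. NXT1 had 17.8, 19.3 and 16.5 CPM in deprived cells against 8.13, 9.14 and 9.79 CPM in control cells at 24 h, and 20.9, 22.3 and 24.2 CPM in deprived cells and 7.92, 10.7 and 12.1 CPM in control cells at 48 h. NXT2 had 12.1, 13.4 and 14.1 CPM in deprived cells against 19.7, 20.4 and 18.7 CPM in control cells at 24 h, and 16.2, 12.5 and 12.7 CPM in deprived cells and 17.9, 18.3 and 19.8 CPM in control cells at 48 h. None of these groups overlapped, with log2 fold changes of 0.99 and 1.14 for NXT1 (edgeR adjusted p = 1.95e-06 and 8.58e-08) and -0.57 and -0.44 for NXT2 (edgeR adjusted p = 7.91e-05 and 0.000668). NXF1 passed as higher at 48 h alone, at 0.49.

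Of the 6 tested nucleases, DROSHA, better known for microRNA processing, rose by a log2 fold change of 0.21 and 0.34. XRN2, the nuclear 5' to 3' exonuclease, had 180, 165 and 171 CPM in deprived cells against 203, 200 and 195 CPM in control cells at 24 h, and 157, 159 and 160 CPM in deprived cells and 189, 195 and 190 CPM in control cells at 48 h. It was below its controls in every library, by 1.16-fold and 1.21-fold (edgeR adjusted p = 0.000772 and 3.83e-05). The cytoplasmic XRN1 gave -0.06 and 0.04 and passed at neither time. REXO2 passed as higher at 48 h alone, at 0.46. The RNA exonuclease gene REXO5, singled out after its values were seen, had 9.07, 6.79 and 5.61 CPM in deprived cells against 3.17, 4.52 and 4.26 CPM in control cells at 24 h, and 1.54, 1.95 and 1.41 CPM in deprived cells and 5.67, 6.03 and 5.32 CPM in control cells at 48 h. The groups were apart in opposite directions, 1.79-fold higher in deprived cells at 24 h and 3.47-fold lower at 48 h (edgeR adjusted p = 0.000866 and 3.65e-07).

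Levels differed widely among the 73 factors. Per kilobase of the table's gene length and as a mean of the 12 libraries, they ranged from 1.44 CPM for UTP14C to 215 CPM for CSNK2A1, with a median of 19.4 CPM. UTP14C, REXO5 and RPP25 were the lowest on that scale and FBL, RAN and CSNK2A1 the highest, so falls were called at both ends of the range.

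The difference between the deprivation effects at 48 h and at 24 h was positive more often than negative among the factors that passed its test. This difference passed as positive for 28 and as negative for 10 of the 94 tested genes, against 16.4% and 19.2% of all genes, and as positive for 26 and negative for 7 of the 73 factors. In deprived cells, 20 of the 94 were higher and 13 lower at 48 h than at 24 h, against 20.7% and 21.8% of all genes. In control cells, 3 were higher and 22 lower at 48 h than at 24 h, against 12.7% and 10.4% of all genes. The count of 3 became 5 without deprived 24 h replicate 1 or without deprived 24 h replicate 3. With library totals in place of scaling factors, control cells gave 3 higher and 30 lower, and all genes gave 1697 higher and 2580 lower in place of 2151 and 1760. These comparisons share libraries with those between deprived and control cells.

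Among the positive differences, GNL3L had 112, 116 and 117 CPM in deprived cells against 59.2, 61.6 and 56.1 CPM in control cells at 48 h, and 82.7, 85.5 and 90.0 CPM in deprived cells and 73.0, 72.6 and 70.3 CPM in control cells at 24 h. Its effect was larger at 48 h by 0.70 on the log2 scale (SE 0.08, edgeR adjusted p = 6.34e-07), with deprived cells higher at 48 h than at 24 h by 0.42 and control cells lower by 0.29. UTP15, UTP14A and LSG1 followed, with differences of 0.61, 0.60 and 0.58. LSG1 rose in deprived cells between the times by 0.41 with control cells at -0.17, and UTP15 rose in deprived cells by 0.20 with a fall by 0.41 in control cells. A negative difference can be a larger fall as well as a smaller rise. Among the negative differences, that of FBL was -0.69 (SE 0.09, edgeR adjusted p = 8.79e-06). FBL was lower in deprived cells at 48 h than at 24 h by 1.71-fold, with control cells at a log2 change of -0.08. DKC1 kept a rise at 48 h that was smaller than at 24 h by 0.26 on the log2 scale (edgeR adjusted p = 0.0136).

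**Figure D4:**
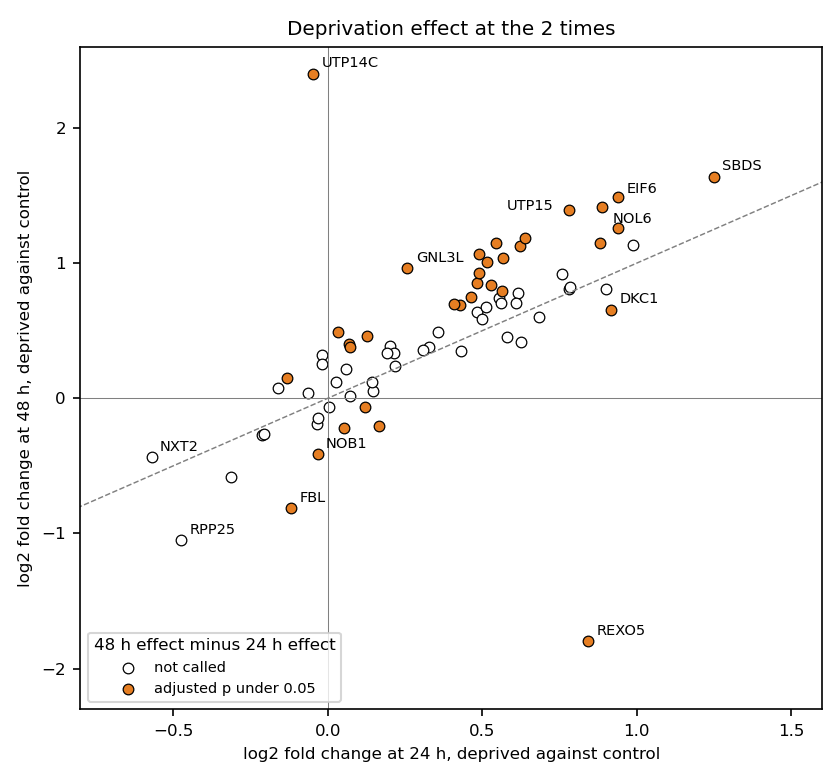
Log2 fold change of each tested factor in deprived against control cells at 24 h (horizontal) and at 48 h (vertical). Each point is 1 gene, orange where the difference between the effects has an edgeR adjusted p under 0.05, and the dashed line marks equal effects. Most points in the upper right lie above the line, UTP14C (2.40 at 48 h and -0.05 at 24 h) lies far above it and REXO5 (-1.79 at 48 h and 0.84 at 24 h) far below.

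**Figure D5:**
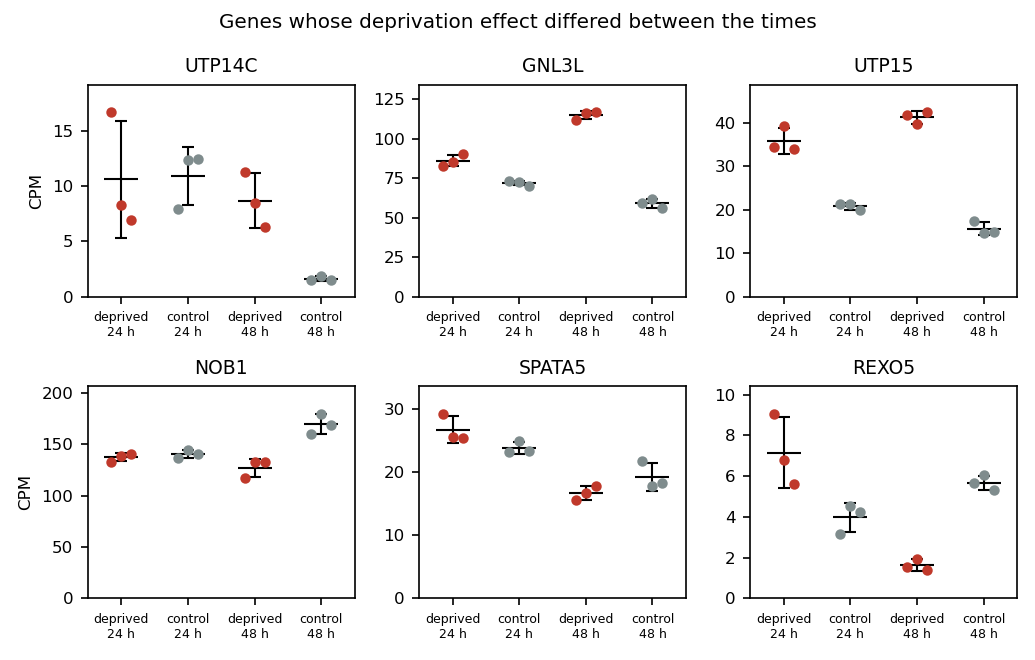
CPM of 6 genes whose deprivation effect differed between 48 h and 24 h, in each library, with deprived cells in red and control cells in grey. Points are libraries, bars are the mean and SD of 3 libraries, and each axis starts at 0. The low control values of UTP14C at 48 h (1.51 to 1.87 CPM) and the low deprived values of REXO5 at 48 h (1.41 to 1.95 CPM) set those genes apart.

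Among the loci outside the assembly factors, 5 of 20 tested pseudogenes and other copies rose at 24 h and none fell, or 25% and 0% against 28.8% and 26.9% of all genes. At 48 h 5 rose and 2 fell, or 25% and 10%, against 33.5% and 34.9% of all genes, so the rises were no more frequent than among all genes. The 5 rises at 48 h became 3 with upper-quartile scaling or without deprived 48 h replicate 1 or 3 or control 48 h replicate 1 or 2. Among the rises at 24 h, that of FCF1P2 was lost with upper-quartile scaling, library totals, DESeq2 or the 24 h groups alone. It was also lost without deprived 24 h replicate 1 or control 24 h replicate 1 or 3. Of the exonic bases of FCF1P2, 100% lie within exons of NME6 on the same strand. The 24 h call of BMS1P10 was lost without deprived 24 h replicate 2. SBDSP1, described above, had the largest rise of these loci at both times. The loci that fell at 48 h were RANP4 and AC012615.6, both at low levels. RANP4, a processed pseudogene of RAN with 71 estimated counts in the 12 libraries together, had 0.176, 0 and 0 CPM in deprived cells against 0.596, 0.640 and 0.184 CPM in control cells at 48 h, and 0.244, 0.130 and 0.171 CPM in deprived cells and 0.568, 0.359 and 0.205 CPM in control cells at 24 h. The 48 h groups lay next to each other without overlap and those at 24 h overlapped, with log2 fold changes of -2.87 (edgeR adjusted p = 0.00545) and -1.06 (edgeR adjusted p = 0.229). The noncoding locus AC012615.6 had 1.01, 0.789 and 1.05 CPM in deprived cells against 2.64, 2.56 and 2.52 CPM in control cells at 48 h, with a log2 fold change of -1.43 (edgeR adjusted p = 0.000112) and one of -0.31 at 24 h, where its groups overlapped. The BMS1 copy AC245060.7, with 35.7 ± 1.599 CPM in deprived cells and 35.3 ± 1.76 CPM in control cells at 48 h (SD, n = 3 each), gave log2 fold changes of 0.05 and 0.01. The full-length BMS1, a GTPase of the processome, rose by 0.36 and 0.49, and the sum of the pair was 240.8 ± 3.53 CPM in deprived cells against 181.4 ± 1.97 CPM in control cells at 48 h (SD, n = 3 each). The 17 copies of the 5S gene had 196 estimated counts in all 12 libraries together. The 1 tested copy, RNA5S8, had 0, 0 and 0.343 CPM in deprived cells against 0.615, 0.513 and 0.667 CPM in control cells at 24 h and no count in any library at 48 h. It passed as lower at 24 h (log2 fold change -2.28, edgeR adjusted p = 0.0316), a call lost with DESeq2 and without 1 of 5 single 24 h libraries, namely deprived replicates 1 (-1.76) and 2 (-1.71) and control replicates 1 (-2.26), 2 (-2.38) and 3 (-2.20).

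Other genes of the same process, outside this pathway annotation, were described for comparison. Of 60 further assembly factors, 48 rose and 2 fell at 24 h, or 80% and 3.33% against 28.8% and 26.9% of all genes. At 48 h 49 rose and 2 fell, or 81.7% and 3.33% against 33.5% and 34.9% of all genes, and the medians were 0.41 and 0.60. RRP12 and PNO1 had the largest log2 fold changes at 48 h, at 1.68 and 1.67, and DDX54 and DDX10 the smallest, at -0.18 and -0.13. The 48 h call of DDX10 was lost in 14 of the 20 other fits, and that of DDX54 without deprived 48 h replicate 1 (-0.12) or control 48 h replicate 2 (-0.14). RNA polymerase I with its factors was mixed, with 9 of 21 genes higher and 6 lower at 24 h and 9 higher and 7 lower at 48 h. These are 42.9% and 28.6% at 24 h and 42.9% and 33.3% at 48 h, of which the shares lower lie near those of all genes, 26.9% and 34.9%, and the shares higher above 28.8% and 33.5%. Its initiation factor genes TAF1A and RRN3 gave 1.26 and 1.18 at 48 h, while the shared subunit gene POLR2H and the termination factor gene TTF1 gave -0.61 and -0.56. Of 14 genes of the RNA exosome, 9 rose and 1 fell at 24 h, or 64.3% and 7.14% against 28.8% and 26.9% of all genes. At 48 h 9 rose and 4 fell, or 64.3% and 28.6% against 33.5% and 34.9% of all genes. EXOSC8 gave 1.42, EXOSC4 gave 0.65 and EXOSC7 gave -0.42 at 48 h. EXOSC6 had no count in the 6 deprived libraries. In control cells it averaged 1.08 ± 1.16 CPM at 24 h and 3.36 ± 1.01 CPM at 48 h (SD, n = 3 each). It was the only exosome gene called lower at 24 h, so that call rests on values near the floor.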

How the data were processed

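The authors made estimated counts per gene for 12 libraries with RSEM, per the submitters' processing notes, and deposited them unnormalized in 1 table with gene annotation. The submitters' processing notes name fastp, HISAT, RSEM and the GRCh38 genome, without versions. The annotation release, the library's strandedness and the use of strand in counting are not given in the sources used here. RSEM shares ambiguous reads among near-identical copies, so values of such copies are uncertain. A label calls the table TPM, but the values sum to a different total in each library and were read as estimated (expected) counts, which were rounded here to whole numbers. Rows without a gene name, 316 of 60987, held 0.748% to 1.65% of the counts and entered neither library sizes nor tests.

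Counts were scaled by TMM and filtered with filterByExpr (minimum count 10, minimum total 15), which left 16994 genes. They were fitted with edgeR 4.0.16 in R 4.3.3 as 4 group means over 12 samples (quasi-likelihood test, Benjamini-Hochberg adjustment over all genes tested, threshold 0.05). Fold changes are deprived over control, or 48 h over 24 h, and their SE is the log2 fold change divided by the square root of F. CPM use TMM-scaled library sizes. The code was tested on simulated counts.

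Members are the rows with a symbol and the pathway annotation, and they and the role groups, other lists, markers, motifs and rules for named genes were chosen with earlier results of these data known. Named are the extremes of each role, the 8 largest rises and falls at each time, the 5 largest differences in effect in each direction (mean level at least 5 CPM), and a fixed set of well-known factors, and for each other list the largest and smallest log2 fold changes at 48 h. Other genes are named with their values seen, to account for the members of a role or for a small count. Coordinates and gene types are those of GENCODE (GRCh38), matched by gene ID for 225 of 227 genes. Alternatives were other scalings (RLE, upper-quartile, library totals), no filter or a minimum mean of 5 CPM, DESeq2 1.42.0, the replicate number as a block, a fit of the compared groups alone, and each library left out in turn. Libraries of a group differed by more than sampling noise (chi-square per degree of freedom 2.996 to 8.121), so none was merged. Counting error is included in the fitted spread.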

Additional observations from a re-analysis of the deposited data

Results flagged for a closer look

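The following genes were noted because the effect of deprivation at 48 h differed from that at 24 h by a test of the difference itself (edgeR, adjusted p under 0.05 over all genes tested). The differences below are on the log2 scale, 48 h effect minus 24 h effect. For UTP14C the difference was 2.45 (SE 0.42, edgeR adjusted p = 0.000163), with 8.68 ± 2.50 CPM in deprived cells and 1.64 ± 0.20 CPM in control cells at 48 h, and 10.6 ± 5.30 CPM in deprived cells and 10.9 ± 2.61 CPM in control cells at 24 h (SD, n = 3 each). GNL3L, UTP15, UTP14A and LSG1 had differences of 0.70, 0.61, 0.60 and 0.58. FBL had -0.69, NOB1 -0.38, SPATA5 -0.37, XPO1 -0.27 and DKC1 -0.26. The difference of SPATA5 no longer passed with library totals (-0.32), without deprived 24 h replicate 1 (-0.30), control 24 h replicate 1 (-0.35) or 3 (-0.35), deprived 48 h replicate 1 (-0.32) or 2 (-0.37), or control 48 h replicate 1 (-0.27). That of XPO1 no longer passed with library totals (-0.22) or without deprived 48 h replicate 3 (-0.22). REXO5, whose mean level is below 5 CPM and which was singled out after its values were seen, had -2.64 (SE 0.28, edgeR adjusted p = 6.9e-07).

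A further signal lay in a row that the pathway annotation covers but that has no gene name and entered no comparison. It is annotated to BMS1 and averaged 5.604 ± 0.632 CPM in deprived cells and 2.56 ± 0.09 CPM in control cells at 24 h, and 6.16 ± 0.96 CPM in deprived cells and 3.18 ± 0.38 CPM in control cells at 48 h (SD, n = 3 each). Deprived and control libraries did not overlap at either time.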

How the results depend on the processing

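No median or ratio of sums of the pathway genes, and no called single-gene value that was recomputed, reversed direction under the alternatives run. With library totals, 10 genes fell at 24 h in place of 6. The median log2 fold change of the 94 genes was then 0.23 in place of 0.31, while that of all genes was -0.08 in place of -0.01. Without a filter on low counts, where more genes of the pathway enter, the median of the pathway genes at 24 h was 0.19. The ratio of the summed CPM, deprived over control, was 1.278 at 24 h and 1.374 at 48 h. At 24 h it was 1.217 with upper-quartile scaling, 1.214 with library totals and 1.258 with the filter at 5 CPM, and at 48 h it was 1.32 with upper-quartile scaling. In control cells, 5 genes in place of 3 were higher at 48 h than at 24 h when those groups alone were fitted, and 2 to 5 with single libraries left out. Where not stated otherwise, the cause was not tested. Deviations of same-numbered libraries correlated at -0.0412 to 0.126. Every control 24 h library correlated best with the deprived 48 h library of its own number. In the other pairs of groups, some libraries correlated best with another number. With 3 libraries per group, this cannot show whether replicate numbers pair the samples. With the replicate block, 52 genes rose and 7 fell at 24 h, and 57 rose and 12 fell at 48 h. DESeq2 gave 51 and 5 at 24 h and 55 and 12 at 48 h. Of 282 values for single genes of the pathway, which are the 94 tested genes at 24 h, at 48 h and for the difference between the effects, 49 changed their call in at least 1 alternative, and of 190 values for the genes of the other lists 30 did. Counts by role or list that moved by over 1.5 times were all 5 or fewer. Most of the 5S copies and the pseudogenes had too few reads to test, and the cause of this was not tested.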
